A study of Petromyzon marinus with 17 samples.

Results

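Scaffold PIZI01000031v1 of the sea lamprey (Petromyzon marinus) assembly petMar3 carried 21369 of the 1469679 non-methylated islands (NMIs) called in 12 BioCAP libraries. Its members were chosen by position alone, as every called interval that lies on this scaffold. The scaffold itself was chosen because the study shows it in a track of partially methylated domains, so it is not a random pick among scaffolds. The last NMI on the scaffold ended at base 12337967, which left 123 complete windows of 100 kb, numbered here from the start of the scaffold. Each tissue had 2 replicate libraries: adult brain, adult muscle and adult PBMC (peripheral blood mononuclear cells), set against adult sperm, embryos at day 1 and embryos at day 2 of development. These sets of 3 tissues each (brain/muscle/PBMC and sperm/day 1/day 2) follow the study, which grouped them partly on these same libraries, so a difference between them is not independent evidence for the grouping. The labels name no treatment or mutation for any sample; the study describes its libraries as biological replicates, with a male and a female fish for brain and muscle and different males for PBMC. The limma p-values and SEs below measure only the spread between the 2 replicates of a tissue. They do not measure the spread among the 3 tissues of a set, so a small value does not mean that these tissues were alike. The exact permutation tests compare tissues instead.

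BioCAP pulls down DNA rich in unmethylated CpG with the zinc-finger CxxC domain of human KDM2B, a protein that binds CpG only when the cytosine is free of methylation. NMIs, also called CpG islands, are short stretches that escape methylation and in vertebrates often mark promoters and other gene regulatory elements. Lamprey DNA is methylated unevenly, with long partially methylated domains, and in early embryos the lamprey discards part of its germline genome from somatic cells. A region may therefore lack an NMI because its CpGs are methylated, because it holds few CpGs, because its DNA is absent from the cells, or because reads could not be placed there; an NMI list alone cannot tell these apart. Genes, CpG content and sequence were not analysed here.

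On average, a library had 14.4 ± 2.24 NMIs per 100 kb window of the scaffold (SD over 6 tissues, each the mean of its replicates). Muscle lists were the longest on the scaffold, with 2103 and 2110 NMIs, while brain had 1925 and 2090 and PBMC had 1693 and 1720. Sperm lists held 1745 and 1968 NMIs, day 1 lists 1684 and 1676, and day 2 lists 1329 and 1326. Thus replicates lay close together in muscle, PBMC, day 1 and day 2 but apart in brain and sperm, and brain and sperm overlapped in number. The scaffold took 1.47% ± 0.000356 of the brain lists, 1.49% ± 0.0017 of the muscle lists and 1.47% ± 0.00217 of the PBMC lists, against 1.40% ± 0.00875 of the sperm lists, 1.42% ± 0.0179 of the day 1 lists and 1.47% ± 0.00291 of the day 2 lists (SD, n = 2 each). Sperm and day 1 therefore had slightly smaller shares of their NMIs here than the other tissues, and day 2 did not.

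Libraries differed in depth. Read pairs per sample ranged between 34M and 307M in the labels, inputs included, and the study's mapping table gives embryo libraries the smallest shares of uniquely mapped pairs. The part of depth in list length was not tested. The median −log10 q of NMIs on the scaffold was 26.9 and 30.9 in brain, 39.2 and 38.3 in muscle, 50.7 and 40.2 in PBMC, 62.2 and 63.8 in sperm, 12.4 and 12.6 at day 1, and 11.5 and 13.5 at day 2. Embryo lists were thus the least certain and sperm lists the most certain, so an NMI missing in embryos may have gone undetected. The labels list no input for PBMC, so its fold enrichments and q-values may rest on another background than those of other tissues. This was not tested.

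The widths of NMIs did not separate the tissue sets. Median widths on the scaffold were 552 and 576 bp in brain, 460 and 447 bp in muscle and 457 and 501 bp in PBMC, against 536 and 485.5 bp in sperm, 427 and 442 bp at day 1 and 431 and 437 bp at day 2. Brain and sperm had the widest NMIs, and PBMC overlapped with sperm, whereas both muscle libraries lay below both sperm libraries. The mean over tissues was 499 ± 57.9 bp for brain/muscle/PBMC and 460 ± 44.2 bp for sperm/day 1/day 2 (SD, n = 3 tissues each), a difference of 39.1 bp (two-sided exact permutation test over 20 assignments of tissues, p = 0.5; the smallest p this design allows is 0.1). The size of this difference depended on the lists, with 101 bp for equally long lists (p = 0.4 in the same exact permutation test) and 19.9 bp at a −log10 q of at least 10. NMIs covered 12.3% ± 1.16 of the scaffold in brain, 9.69% ± 0.248 in muscle and 8.28% ± 0.709 in PBMC, against 9.76% ± 0.264 in sperm, 7.50% ± 0.188 at day 1 and 5.69% ± 0.0878 at day 2 (SD, n = 2 each).

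The 6 tissues together gave 2454 merged NMIs on the scaffold, taking for each tissue only the bases within NMIs of both replicates and joining stretches that overlap. They covered 1708 kb, or 13.8% of the scaffold up to the last NMI. NMIs lay irregularly: the median window held 19 merged NMIs (quartiles 11 and 27.5), and the counts ranged from 0 to 56. Neighbouring windows resembled each other, with a Spearman rho of 0.42 over 122 pairs of adjacent windows from the same libraries. Density was also higher in windows 83 to 123, with 26.8 ± 11.4 merged NMIs per window, against 16.1 ± 9.27 in windows 1 to 41 and 16.7 ± 9.85 in windows 42 to 82 (SD over 41 windows each). It did not rise steadily: the mean per window peaked at 38.8 in megabase 10 and fell to 26.1 and 21.8 in megabases 11 and 12. Among 62 scaffolds with at least 50 complete windows, this one ranked 11 in density, with 19.9 merged NMIs per 100 kb, where the median scaffold had 17.1.

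**Figure D1:**
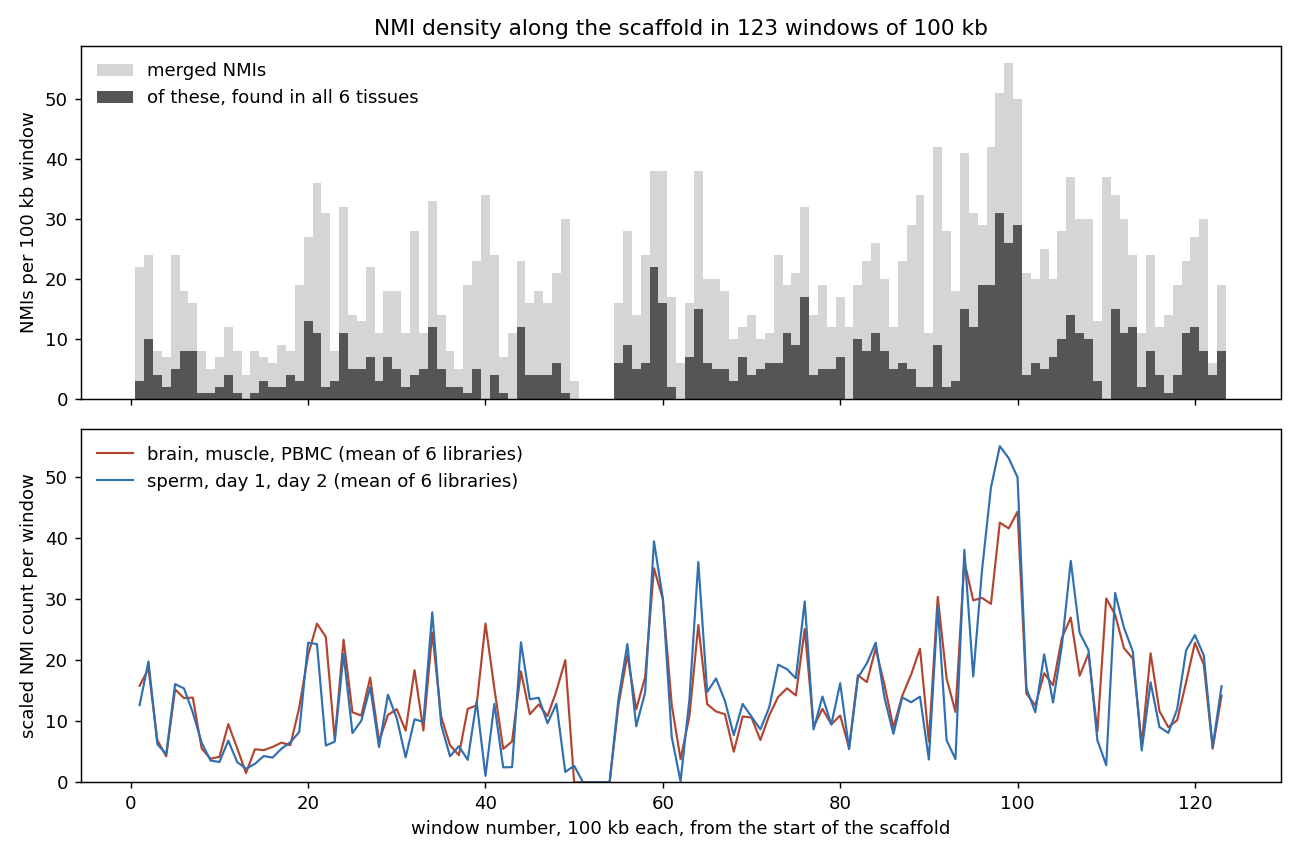
Upper panel, merged NMIs in each of the 123 complete 100 kb windows (light bars) and those found in all 6 tissues (dark bars); lower panel, mean NMI count per window after scaling each library to the same list length, for brain, muscle and PBMC and for sperm, day 1 and day 2. Counts peak at 56 in window 99 and are 0 in windows 51 to 54, and the red line stands far above the blue one in windows 22, 38, 40, 49 and 110.

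The densest windows were 99, 98 and 100, which are consecutive and span bases 9700001 to 10000000. They held 56, 51 and 50 merged NMIs, of which 26, 31 and 29 were found in all 6 tissues, and none was found in brain, muscle and PBMC only. In window 99, raw counts were 42 and 50 in brain, 43 and 45 in muscle and 40 and 46 in PBMC, against 53 and 54 in sperm, 50 and 44 at day 1 and 49 and 41 at day 2. The groups overlapped in raw counts. Scaled to equal list length, all 3 windows were lower in brain/muscle/PBMC, with log2 differences of -0.34 in window 99, -0.35 in window 98 and -0.16 in window 100 (limma adjusted p = 0.00141, 0.000367 and 0.0254). Without scaling, only window 98 of these was lower (log2 difference -0.14, limma adjusted p = 0.0198), and window 100 had a log2 difference of 0.06 that did not pass the test (adjusted p = 0.352). NMIs covered 28.9% of window 99 on average in brain/muscle/PBMC and 32.3% in sperm/day 1/day 2, but 34.0% and 32.1% of window 100.

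At the other extreme, windows 51 to 54 held no NMI in any of the 12 libraries. They lie inside the longest stretch without NMIs, 506 kb between bases 4905243 and 5411652. The next longest stretches were much shorter, 111 kb ending at base 948398 and 77.3 kb ending at base 4221943. The long stretch resumed at nearly the same place in every library, since the first NMI after it started between bases 5411653 and 5415402 in each of the 12 lists. Its near side differed between the sets. The last NMI before it ended between bases 4898884 and 4899016 in all 6 brain, muscle and PBMC libraries, but between bases 4901904 and 4905242 in the sperm and embryo libraries. In that interval of a few kilobases, brain, muscle and PBMC had no NMI in any library, whereas sperm had 3 and 3, day 1 had 3 and 4, and day 2 had 4 and 1. The highest fold enrichment over background among these NMIs was 18.4 and 14.5 in sperm, 6.47 and 7.05 at day 1, and 7.32 and 7.25 at day 2. This interval was picked by where the brain, muscle and PBMC calls end, so the lack of overlap between the groups there is not a test. It begins at the end of window 49 and lies mostly in window 50, which had too few NMIs to be tested.

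Tissue sharing on the scaffold followed that of the series closely. Of the 2454 merged NMIs, 796 (32.4%) were found in all 6 tissues, where the whole series had 32.6%. NMIs found in 1 tissue numbered 474 (19.3%, against 19.7% in the series). Core NMIs, the stretches common to all 6 tissues, numbered 908 and covered 397 kb, so that some shared NMIs held more than 1 core stretch. Core stretches had a median width of 358.5 bp on the scaffold and 369 bp in the series. NMIs found in brain, muscle and PBMC and in no other tissue numbered 197 (8.03%, against 6.71% in the series), and those found in sperm, day 1 and day 2 only numbered 33 (1.34%, against 1.49%). With lists of equal length these numbers were 120 and 77, so their ratio changed with list length. Among the 62 large scaffolds, the scaffold ranked 41 for sharing by all tissues, 11 for brain/muscle/PBMC NMIs and 26 for sperm/day 1/day 2 NMIs.

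**Figure D2:**
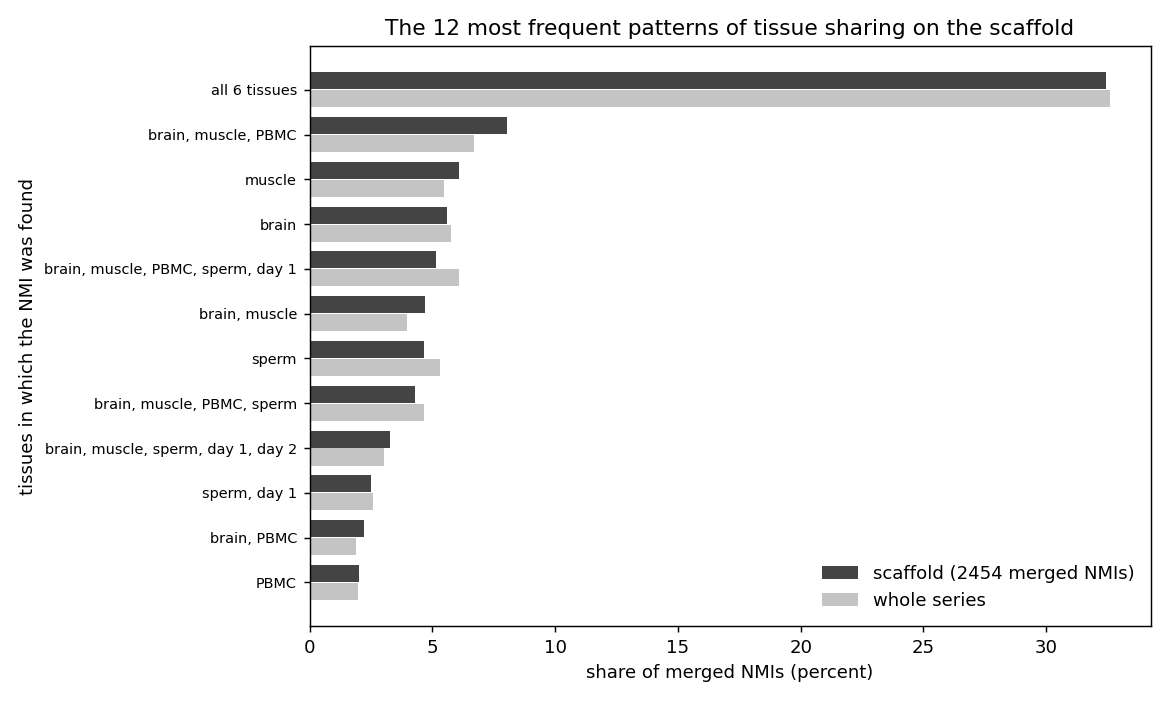
Share of merged NMIs (percent) with each of the 12 most frequent patterns of tissue sharing on the scaffold (dark bars, 2454 merged NMIs) and in the whole series (light bars). The pattern of all 6 tissues makes up 32.4% on the scaffold and 32.6% in the series, and brain, muscle, PBMC makes up 8.03% and 6.71%.

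Single tissues contributed unequally. Muscle alone accounted for 149 merged NMIs, brain alone for 137, sperm alone for 114, PBMC alone for 49 and day 1 alone for 23. A further 115 were found in brain and muscle only, and 126 in every tissue but day 2. Of the 1192 day 2 NMIs on the scaffold common to both replicates, 97.6% overlapped a sperm NMI, 94.7% a day 1 NMI, 92.3% a muscle NMI, 91.0% a brain NMI and 82.6% a PBMC NMI. The reverse shares were lower, with 60.9% of 1772 sperm NMIs and 51.1% of 1904 brain NMIs overlapping a day 2 NMI. The short day 2 list was thus largely contained in the longer lists, and sperm contained more of it than any other tissue did.

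Wider NMIs were shared by more tissues. The median merged width was 286.5 bp for NMIs of 1 tissue, 385 bp for 2, 482.5 bp for 3, 487 bp for 4, 578 bp for 5 and 930.5 bp for all 6, and the series had the same order with 285 and 904 bp at its ends. Merging itself adds width where more lists overlap. A wider call also meets more easily the 1 bp of overlap that counts as sharing, within single libraries too. The part of this link in the widths was not tested. The pattern was also present within single libraries: in sperm, NMIs belonging to all 6 tissues had median widths of 724 and 726 bp, those of sperm/day 1/day 2 had 487 and 504.5 bp, and those at a single-tissue NMI of any tissue had 324.5 and 313.5 bp. Fold enrichment behaved likewise in sperm, with medians of 21.4 and 20.9 for NMIs of all tissues, 10.7 and 11.9 for sperm/day 1/day 2 NMIs and 4.60 and 5.14 for single-tissue NMIs. In muscle, the medians were 16.1 and 16.6 for NMIs of all tissues, 11.3 and 10.4 for brain/muscle/PBMC NMIs and 5.98 and 5.82 for single-tissue NMIs. Set-restricted NMIs were thus intermediate in strength, and calls at single-tissue NMIs were the weakest in both tissues. These calls include some at single-tissue NMIs of other tissues. Sperm had 118 and 156 of them and muscle 168 and 166, against 114 merged NMIs of sperm alone and 149 of muscle alone.

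**Figure D3:**
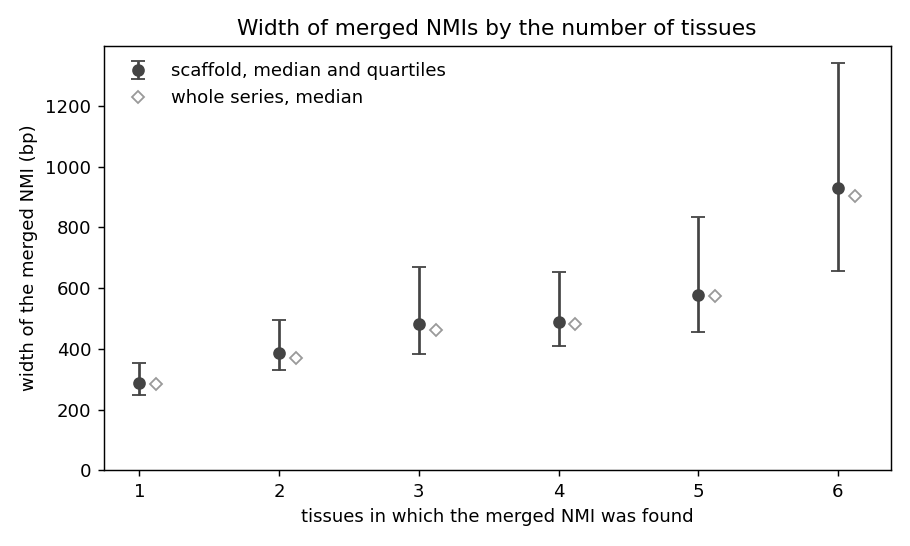
Width of merged NMIs (bp) against the number of tissues in which they were found; circles and bars are medians and quartiles on the scaffold, diamonds are medians over the whole series. The median on the scaffold is 286.5 bp for NMIs of 1 tissue and 930.5 bp for those of all 6.

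The widest merged NMI of the scaffold, 6785 bp at bases 9647037 to 9653821 in window 97, was called in all 12 libraries with a highest fold enrichment of 19.2 and 16.1 in brain and 31.9 and 26.5 in sperm. It was followed by 4952 bp at bases 11198203 to 11203154 and 4618 bp at bases 9964510 to 9969127, both also found in all 12 libraries. The widest core NMI measured 2153 bp (bases 11979326 to 11981478), and its fold enrichment ranged between 10.7 and 25.0 over the 12 libraries. Single-tissue NMIs did not come near these sizes. The widest of them was a 1012 bp muscle NMI at bases 9126076 to 9127087, with fold enrichments of 5.64 and 9.12, and the widest brain NMI had 891 bp (bases 4427420 to 4428310, fold enrichments of 5.32 and 7.90). The remaining ones were not clean, because single replicates of other tissues also had a call: the widest PBMC NMI (668 bp, bases 6098963 to 6099630) was called in brain replicate 1, the widest sperm NMI (741 bp, bases 9663436 to 9664176) in day 1 replicate 1, the widest day 1 NMI (469 bp, bases 3405813 to 3406281) in 3 libraries of other tissues, and the widest day 2 NMI (283 bp, bases 3800475 to 3800757) in day 1 replicate 2.

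Tissues of 1 set overlapped more on the scaffold than tissues of different sets. The Jaccard index, the bases shared by 2 lists divided by the bases in either, averaged 0.61 ± 0.0401 over the 6 tissue pairs within a set and 0.492 ± 0.0545 over the 9 pairs between sets (SD over pairs, which share tissues). The difference of 0.117 was the largest of the 10 possible splits of the tissues into sets of 3 (one-sided exact permutation test, p = 0.1, the smallest p possible), and the next split reached 0.0131. Sperm and day 1 formed the closest pair at 0.665, above day 1 and day 2 at 0.624 and muscle and PBMC at 0.628. The most distant pair was brain and day 2 at 0.394. Not every pair followed the sets, since muscle and sperm (0.575) overlapped more than sperm and day 2 (0.55). Coverage limits the index, however, because lists that cover unequal numbers of bases cannot overlap fully. NMIs covered 5.69% of the scaffold at day 2, against 9.76% in sperm, 9.69% in muscle and 12.3% in brain. The part of coverage in the low values for day 2 was not tested. Replicates of 1 tissue had indices between 0.7 and 0.869, above every pair of different tissues.

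To find where the sets differ, NMI counts per window were scaled to equal list length and compared by limma on log2(scaled count + 1), with all 7620 windows of the assembly that averaged at least 3 scaled NMIs fitted together. On the scaffold 116 windows were tested. NMIs were more frequent in brain/muscle/PBMC than in sperm/day 1/day 2 in 39 windows (33.6%) and less frequent in 33 (28.4%) at a Benjamini-Hochberg adjusted p below 0.05, where the series had 30.3% higher and 31.8% lower. The scaffold's shares are thus near those of the assembly. The size of the change was unequal in the 2 directions: the median log2 difference was 0.45 in windows that were higher and -0.26 in windows that were lower. A log2 difference over 1 occurred in 8 windows on the higher side (6.90%, against 5.28% in the series) and in 0 on the lower side (0.249% in the series). Scaling decides the balance of directions. Without scaling by list length, 59 windows were higher and 10 lower, and the median over all windows of the assembly shifted to 0.18; with the percent of each window covered in place of the count, 86 were higher and 4 lower, with a median shift of 0.32. The 10 windows named below for their difference kept their direction under both.

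**Figure D4:**
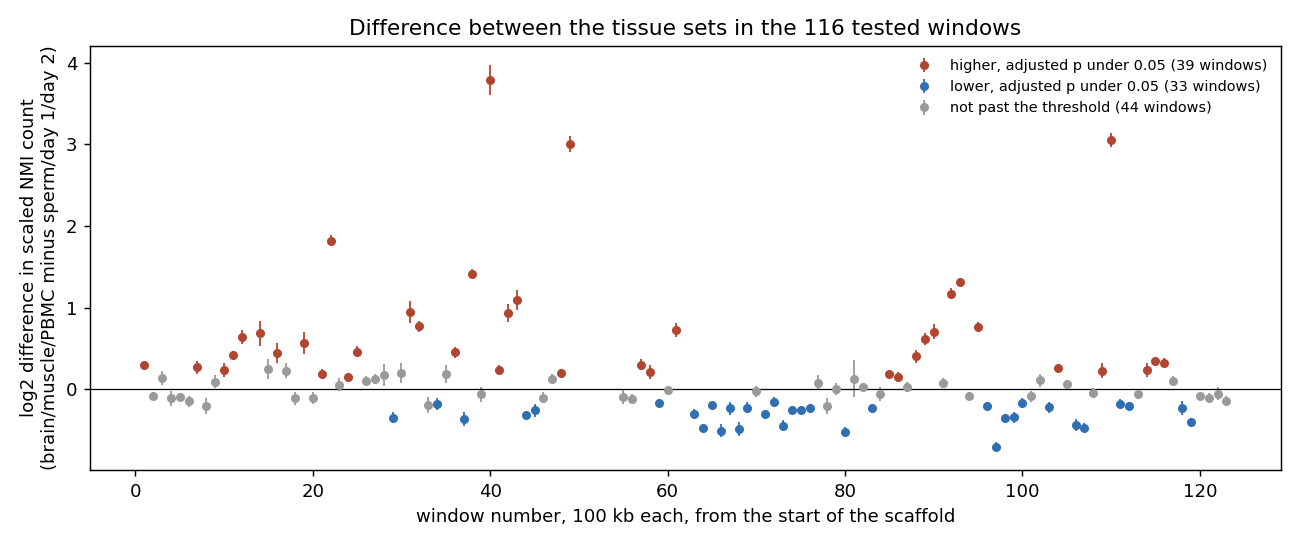
Difference in scaled NMI count (log2, brain/muscle/PBMC minus sperm/day 1/day 2) in each of the 116 tested 100 kb windows, with its standard error as bars; red, 39 windows higher, blue, 33 windows lower, grey, 44 windows past neither threshold (limma, adjusted p of 0.05). Windows 40, 49 and 110 exceed 3 and the lowest window, 97, lies at -0.70.

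The 72 windows that were higher or lower formed 36 runs of the same direction, of which 17 were single windows. The longest were runs of lower windows, 63 to 69 (7 windows), 71 to 76 (6 windows) and 96 to 100 (5 windows), and the longest run of higher windows was 40 to 43 (4 windows). Of the 18 windows in these lower runs, 6 were lower without scaling and 4 by percent covered. In windows 1 to 41, 18 of 40 tested windows were higher and 3 were lower, whereas in windows 42 to 82, 7 of 35 were higher and 17 lower. In windows 83 to 123 the directions were nearly balanced, with 14 of 41 higher and 13 lower. Over the series, 30.3% of windows were higher and 31.8% lower. These counts are with scaling, which decides the balance of directions. Over 112 pairs of adjacent tested windows, the log2 differences had a Spearman rho of 0.35; adjacent windows share the same libraries and their scaling. Between density and log2 difference rho was -0.18 over the 116 windows.

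In window 40 (bases 3900001 to 4000000), brain had 28 and 30 NMIs, muscle 34 and 31, and PBMC 23 and 22, against 1 and 1 in sperm, 2 and 1 at day 1, and 1 and 0 at day 2. The groups did not overlap, and sperm and embryos had almost nothing there. Scaled counts averaged 26.0 in brain/muscle/PBMC and 1.05 in sperm/day 1/day 2, a log2 difference of 3.79 ± 0.18 (SE; limma adjusted p = 6.28e-08), the largest of the scaffold. Its size depended on the 1 added to each count before the log, and with 0.5 added it was 4.24. Of the 34 merged NMIs in window 40, none was found in all 6 tissues, 18 were found in brain, muscle and PBMC only, 5 in brain and muscle and 5 in muscle alone. The widest of the 18 had 1640 bp (bases 3937971 to 3939610), with fold enrichments between 9.66 and 33.6 in the 6 libraries and no call in sperm or embryos.

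Window 110 (bases 10900001 to 11000000) had 33 and 37 NMIs in brain, 32 and 26 in muscle, and 32 and 32 in PBMC, against 2 and 2 in sperm, 3 and 3 at day 1 and 2 and 3 at day 2. It had the largest moderated F among tissues of any tested window on the scaffold (280.0, limma adjusted p = 4.19e-08), with a log2 difference of 3.06 ± 0.08 (SE; limma adjusted p = 1.15e-09). Of its 37 merged NMIs, 32 were found in brain, 25 in PBMC and 21 in muscle, and 8 in brain and PBMC only. Scaled to equal list length, however, PBMC was highest with 33.9 and 33.5, above brain with 30.9 and 31.9. The following window, 111, picked after its values were seen, was shared by all tissues, with 15 of 34 merged NMIs found in all 6. Its sign depended on scaling, with a log2 difference of -0.17 ± 0.05 with scaling (SE; limma adjusted p = 0.0151), 0.04 without (adjusted p = 0.676) and 0.21 by percent covered (adjusted p = 0.0045).

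Window 49 (bases 4800001 to 4900000), which directly precedes the long stretch without NMIs, had 18 and 21 NMIs in brain, 27 and 26 in muscle and 18 and 19 in PBMC, against 1 and 1 in sperm, 2 and 2 at day 1 and 2 and 1 at day 2. The log2 difference was 3.01 ± 0.10 (SE; limma adjusted p = 3.69e-09), with a moderated F of 200.1. Muscle led in this window, with 24 of 30 merged NMIs against 18 each in brain and PBMC, and 7 were found in muscle alone. The window also held the widest brain/muscle/PBMC NMIs of the scaffold, of 2698 bp (bases 4829899 to 4832596, fold enrichments of 18.5 to 23.4) and of 2265 bp (bases 4819919 to 4822183, fold enrichments of 13.3 to 28.1). Neither had a call in any sperm, day 1 or day 2 library.

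Window 22 (bases 2100001 to 2200000) had 28 and 30 NMIs in brain, 24 and 27 in muscle and 23 and 21 in PBMC, against 6 and 6 in sperm, 5 and 6 at day 1 and 5 and 5 at day 2, a log2 difference of 1.82 ± 0.06 (SE; limma adjusted p = 7.06e-09). It differs from the preceding windows in that sperm and embryos retained a small set of NMIs. Another of the widest brain/muscle/PBMC NMIs of the scaffold lay here, 1923 bp at bases 2132689 to 2134611, with fold enrichments between 21.0 and 41.5.

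In window 38 (bases 3700001 to 3800000), the adult tissues were not alike. Brain had 18 and 19 NMIs and muscle 13 and 16, but PBMC had 6 and 7, close to sperm with 4 and 5 and day 1 with 4 and 4, and above day 2 with 2 and 2. The log2 difference was 1.42 ± 0.06 (SE; limma adjusted p = 3.11e-08), and 6 of 19 merged NMIs were found in brain alone and 5 in brain and muscle. Its widest brain/muscle/PBMC NMI had only 630 bp (bases 3755530 to 3756159). Fold enrichments there were 28.0 and 26.4 in PBMC, 10.4 and 10.3 in brain and 4.61 and 4.87 in muscle. Without a listed input for PBMC, these values may not be comparable between tissues. PBMC was also low in window 93, which falls outside the 5 named windows and was picked after its values were seen: 14 and 16 NMIs in brain, 17 and 17 in muscle and 6 and 6 in PBMC, against 4 and 4 in sperm, 4 and 3 at day 1 and 3 and 3 at day 2.

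**Figure D5:**
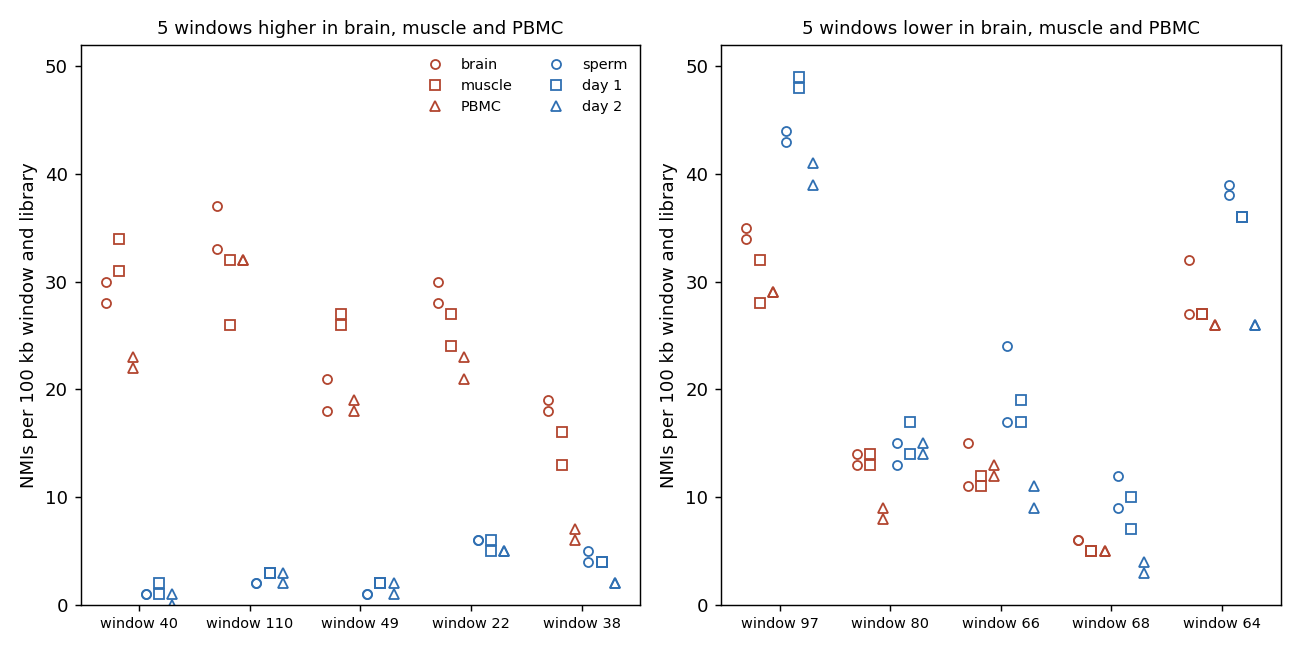
NMIs per 100 kb window in each of the 12 libraries (raw counts, 1 point a library; identical replicates coincide) for the 5 windows with the largest log2 difference in each direction; red, brain, muscle and PBMC, blue, sperm, day 1 and day 2. In windows 40, 110 and 49 the red points lie between 18 and 37 and the blue points between 0 and 3. On the right, red and blue points overlap in every window but 97, where red points lie between 28 and 35 and blue points between 39 and 49.

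The NMIs in these 5 windows had lower fold enrichment than others in brain and muscle, and differed little from others in PBMC and sperm, while day 1 was below and day 2 above the others. Their median fold enrichment was 6.62 and 5.38 in brain, 9.62 and 9.05 in muscle and 13.4 and 10.3 in PBMC, against 7.79 and 6.85, 11.1 and 11.1, and 13.2 and 10.8 for the same libraries in all other windows of the scaffold. The few sperm NMIs there (14 and 15) had medians of 12.6 and 11.1, against 12.4 and 11.8 elsewhere. Embryo NMIs there were also few, with medians of 6.47 and 6.52 at day 1 and 9.26 and 14.1 at day 2, against 8.30 and 8.29 at day 1 and 8.15 and 8.77 at day 2 elsewhere. Sperm lists had 1 or 2 NMIs per library in windows 40, 49 and 110, about as few as the embryo lists. Whether detection played a part in these low counts was not tested. With all 12 lists cut to the same length of 89979 NMIs, the log2 differences were 3.69 in window 40, 2.74 in window 110 and 2.60 in window 49.

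The edges of these domains could be placed more finely by the stretches between NMIs of sperm, day 1 and day 2. This view was chosen after the windows had been seen and is a description. The stretch with most brain/muscle/PBMC NMIs ran over 124 kb between bases 4774609 and 4898378. It ended at the 1 NMI of window 49 found in all 6 tissues. There the last brain, muscle and PBMC NMIs before the long empty stretch started, between bases 4898346 and 4898472. The sperm and embryo NMIs that border the empty stretch started only between bases 4899724 and 4901501. The 124 kb stretch held 23 and 26 brain, 34 and 33 muscle and 21 and 22 PBMC NMIs and no NMI of the other 6 libraries. Another stretch of 74.9 kb (bases 2110345 to 2185233) held between 15 and 22 NMIs per library, and one of 88.6 kb (bases 10881326 to 10969939) between 15 and 20. The last of these was parted by a short NMI of the other set from a further stretch of 23.0 kb (bases 10970199 to 10993158) with 8 to 13 NMIs per library, of which NMIs covered 32.4% and 36.3% in brain. Window 40 was likewise made up of adjoining stretches, at bases 3898073 to 3918979, 3920400 to 3962261 and 3962668 to 4021706. On the scaffold, 12 such stretches with at least 5 NMIs per brain, muscle or PBMC library summed to 647 kb, or 5.24% of its length, where the series as a whole had 2.07%. With at least 3 NMIs per library there were 22 stretches, 8.05% of the scaffold and 4.58% of the series. With at least 5, the scaffold ranked 6 of the 62 large scaffolds, whose median was 1.96% and highest value 8.13%. The reverse, at least 3 NMIs in every sperm, day 1 and day 2 library with none in the others, occurred in 0 stretches on the scaffold and in 13 in the series. Lists were not cut to equal length for these stretches. The reverse asks for NMIs in the short day 2 lists and for none in the longer brain and muscle lists, so the 2 directions are not like for like. The part of list length was not tested.

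NMIs of the brain/muscle/PBMC class lay in 68 of the 123 complete windows. Of the 195 brain/muscle/PBMC NMIs in complete windows, 66 (33.8%) lay in the 5 windows with most of them, and a single window held up to 18. Of the 33 sperm/day 1/day 2 NMIs, 10 (30.3%) lay in the 5 windows with most, and none of their 25 windows held more than 2. These 5 windows were picked by the same counts, and whether this class was unevenly placed was not tested. Among stretches free of brain, muscle and PBMC calls, the one with most sperm and embryo NMIs spanned 8.52 kb ending at base 11799147. It held 4 and 4 NMIs in sperm, 4 and 4 at day 1 and 3 and 2 at day 2.

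The windows with fewer NMIs in brain/muscle/PBMC had small differences. Window 97 (bases 9600001 to 9700000) had the largest, with 34 and 35 NMIs in brain, 28 and 32 in muscle and 29 and 29 in PBMC, against 43 and 44 in sperm, 49 and 48 at day 1 and 41 and 39 at day 2. The groups did not overlap even in raw counts, and scaled counts averaged 29.2 in brain/muscle/PBMC and 48.3 in sperm/day 1/day 2, a log2 difference of -0.70 ± 0.05 (SE; limma adjusted p = 2.13e-06). Of its 42 merged NMIs, 19 were found in all 6 tissues, 40 in sperm, 36 at day 1 and 27 at day 2, but 30 in brain, 23 in muscle and 24 in PBMC. The widest one restricted to sperm, day 1 and day 2 had 408 bp (bases 9682767 to 9683174) and fold enrichments between 4.16 and 9.97, and the 741 bp sperm NMI named above also lay in this window.

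In the other 4 of these windows raw counts overlapped between the sets, mostly through the short day 2 lists. Window 80 (bases 7900001 to 8000000) had 13 and 14 NMIs in brain, 14 and 13 in muscle and 9 and 8 in PBMC, against 13 and 15 in sperm, 14 and 17 at day 1 and 14 and 15 at day 2. Here PBMC was lowest and the other tissues lay close together, while scaled counts did not overlap between the sets, with a log2 difference of -0.52 ± 0.06 (SE; limma adjusted p = 5.73e-05). Window 64 (bases 6300001 to 6400000) had 27 and 32 in brain, 27 and 27 in muscle and 26 and 26 in PBMC, against 38 and 39 in sperm, 36 and 36 at day 1 and 26 and 26 at day 2, so that day 2 equalled PBMC before scaling (log2 difference -0.47 ± 0.05, SE; limma adjusted p = 1.90e-05). Windows 66 and 68 had log2 differences of -0.51 ± 0.08 and -0.48 ± 0.09 (SE; limma adjusted p = 0.000343 and 0.000796). In raw counts sperm and day 1 were highest there. Window 66 had 17 and 24 NMIs in sperm, 19 and 17 at day 1 and 11 and 9 at day 2. Brain had 11 and 15, muscle 11 and 12 and PBMC 12 and 13. Window 68 had 9 and 12 in sperm, 10 and 7 at day 1 and 4 and 3 at day 2. Brain had 6 and 6, muscle 5 and 5 and PBMC 5 and 5. The log2 differences rest on scaled counts, and scaling raises the short day 2 lists the most. Window 68 was no longer past the threshold where lists were of equal length, with a log2 difference of -0.03 (limma adjusted p = 0.836).

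The widest NMIs restricted to sperm, day 1 and day 2 lay elsewhere. The widest had 1382 bp (bases 8831974 to 8833355, window 89), with fold enrichments of 9.07 and 9.18 in sperm, 6.33 and 6.22 at day 1 and 3.32 and 6.36 at day 2. The next, 1127 bp at bases 11838895 to 11840021, reached 17.8 and 22.7 in sperm and also had a call of 4.30 in PBMC replicate 1. The third, 800 bp at bases 9835704 to 9836503, reached 14.5 and 26.2 in sperm and had a call of 3.49 in brain replicate 2. Calls in a single replicate did not count for a tissue, and 3 of the 6 adult libraries had any call at the 33 NMIs of this class, with 7 in brain replicate 2, 4 in muscle replicate 2 and 3 in PBMC replicate 1. At the 197 brain/muscle/PBMC NMIs, sperm replicate 2 had 14 such calls and the other sperm and embryo libraries between 2 and 4.

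Across all 6 tissues, 86 of the 116 windows (74.1%) differed by the moderated F test (limma adjusted p below 0.05), where 73% did in the series. Of these, 65 also differed between the sets and 21 did not, so that part of the variation lay among tissues of a set. The tissue with the highest scaled count was day 2 in 27 windows, muscle in 23, PBMC in 21, brain in 17, sperm in 16 and day 1 in 12. These were 19.8% of windows for muscle, 18.1% for PBMC, 14.7% for brain, 13.8% for sperm and 10.3% for day 1. The series had 16.8% for muscle, 16.7% for PBMC, 14.6% for brain, 17.4% for sperm and 12.7% for day 1. Day 2 also led in the series (21.8% of windows, against 23.3% on the scaffold), although its lists were the shortest. Scaling to equal list length therefore raised the day 2 counts the most. The part of scaling in this lead was not tested.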

How the data were processed

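BioCAP was applied to 12 libraries (6 tissues, 2 replicates each). The labels list 5 inputs, none of them for PBMC, and inputs were not analysed here. According to the study's methods, the authors trimmed reads, aligned them with Bowtie2 to petMar3, discarded duplicates (Picard) and called peaks with MACS2 in each library separately; its options were not stated in the sources at hand. The deposited peak lists give each NMI with a score, a fold enrichment (ratio), a −log10 p-value, a −log10 q-value and the summit position. No petMar3 genome or annotation was used here.

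NMIs were assigned to windows by their midpoint. Window counts were scaled to the mean list length, transformed as log2(scaled count + 1), and windows with a mean scaled count of at least 3 were fitted with limma 3.58.1 (R 4.3.3) across the assembly, with tissue as the factor, the contrast of the 2 tissue sets and Benjamini-Hochberg adjustment. NMIs of a tissue were the stretches of bases covered by NMIs of both replicates. A merged NMI was found in a tissue if it shared at least 1 bp with such a stretch. Intervals were handled with Python 3.11.15, NumPy 2.4.6 and pandas 2.3.3. On simulated counts for the windows higher or lower in brain/muscle/PBMC (7620 windows, 200 changed), the test recovered 100% of 4-fold increases and 98% of decreases to 0.25, with 6 other windows called. These counts were Poisson, with no other difference among tissues, and only denser windows were changed. The simulation therefore does not measure recovery of the smaller differences reported here, nor false calls where tissues of a set differ.

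Named were the 3 densest windows and all windows without NMIs, the 5 windows with the largest log2 difference in each direction past the threshold, the 3 with the largest F, the 3 widest merged NMIs, the widest core NMI, the 3 widest NMIs of each set, the widest set NMI of each window named for its difference, the widest NMI of each single tissue and the 3 longest stretches without NMIs; any other is said to have been picked later. The windows, tissue sets and rules were chosen with earlier results of these data known.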

Additional observations from a re-analysis of the deposited data

How the results depend on the processing

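Leaving out each library in turn gave 34 to 40 higher windows, 27 to 34 lower windows, 68 to 88 windows differing among tissues, 910 to 969 core NMIs, 2439 to 2565 merged NMIs, 183 to 207 brain/muscle/PBMC NMIs, 26 to 43 sperm/day 1/day 2 NMIs, 14.3 to 14.6 NMIs per window, Jaccard differences of 0.111 to 0.124 and width differences of 30.7 to 47.5 bp; a tissue left with 1 library was represented by that library and assumed to vary like the others. With the replicate number as a block, 37 windows were higher, 31 lower and 81 differed among tissues; the numbers pair nothing known, and none of 15 tissue pairs had a correlation of replicate differences over 0.1. A stricter −log10 q of 5 left 19 sperm/day 1/day 2 NMIs; one of 10 left 10, with 502 core NMIs, 11.2 NMIs per window and a width difference of 19.9 bp. Equally long lists gave 120 brain/muscle/PBMC NMIs and 77 sperm/day 1/day 2 NMIs, with 10.8 NMIs per window and a width difference of 101 bp. Asking for 2 of 3 tissues gave 382 and 102. Windows of 50 kb gave 58 lower windows and 130 differing among tissues of 183 tested; windows of 200 kb gave 24, 18 and 49 (higher, lower, differing) of 59, as fewer windows were tested. Percent covered gave 86 higher and 4 lower, and no scaling 59 and 10. Adding 0.5 in place of 1 before the log gave log2 differences of 4.24 in window 40, 3.29 in window 49 and 3.25 in window 110. Among the 10 windows named for their difference, none changed direction; window 68 lost its call at a −log10 q of 10 (limma adjusted p = 0.0759), with equally long lists (0.836) and by percent covered (0.231), and window 80 by percent covered (0.0642). The depth behind each list limits all counts, and a missing call is not a measure of methylation.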
